A study of Mus musculus with 9 samples.

Results

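Translation initiation factors are the proteins that bring the initiator tRNA, the mRNA and the ribosome together at the start codon. The genes described here are those whose only symbol in the array annotation begins with Eif and a digit, leaving out the eIF2 kinases (Eif2ak), with the brightest probe set standing for each gene. This gave 38 genes, read by 94 probe sets, of 12393 genes that could be tested. The rule did not use the difference between tumours and muscles, but brightness was averaged over 9 arrays, of which 6 are tumours. Earlier results of these data were known when the members were chosen. Initiation factors without such a probe set, among them Eif4g1, Eif1, Eif4a3 and Eif5a2, were not analysed here.

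In the initiation pathway, eIF2 bound to GTP carries the initiator tRNA to the small ribosomal subunit, and eIF1, eIF1A, eIF3 and eIF5 help this complex to recognise the start codon. The mRNA is recruited through the eIF4F complex, in which eIF4E binds the cap, eIF4G is the scaffold and eIF4A is an RNA helicase that eIF4B and eIF4H stimulate. The eIF4E-binding proteins compete with eIF4G for eIF4E and are released from it when mTORC1 phosphorylates them. eIF2B reloads eIF2 with GTP, eIF5B joins the ribosomal subunits, and eIF6 keeps the large subunit apart until it is needed. In skeletal muscle, protein synthesis after feeding or loading is set in large part at initiation, through mTORC1 and eIF2B.

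Total RNA was profiled on 1 Affymetrix array per sample, from 6 alveolar rhabdomyosarcomas of mice and from skeletal muscle of wild-type mice in 3 samples. Alveolar rhabdomyosarcoma is a soft-tissue cancer whose cells express genes of the skeletal muscle lineage. The labels give no genotype, transgene, strain, age, sex or treatment for the tumours, and no strain, age, sex or muscle sampled for the muscles beyond wild type. They do not say whether the samples came from separate animals, so p-values measure only the spread between these samples, which may be technical.

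Signals are linear MAS5 intensities in arbitrary units, rescaled to 1 trimmed mean per array because muscles 1 and 3 had been deposited at 294.3 and 140.9, against 500.2 on each tumour array and on muscle 2. The muscle label fitted its markers: all 8 skeletal muscle fibre markers were lower in tumours, with summed signals of 1650 to 88120 in tumours and 150838 to 202393 in muscles. The 88120 was tumour 1, and the next tumour, tumour 2, had 16623. For the fibre markers Acta1 (24741) and Ttn (23345) tumour 1 lay within the range of the muscles. Leukocyte markers were higher in tumours for 5 of 8 genes (7576 to 30617 in tumours, 2516 to 3549 in muscles), as were genes of dividing cells for 6 of 7 (9225 to 14996 in tumours, 1420 to 2918 in muscles). Adipocyte markers were lower in tumours for 4 of 4 genes (1543 to 2757 in tumours, 20739 to 25807 in muscles). Endothelial markers were lower for 1 of 6 genes, fibroblast markers for 1 of 6, and of 3 red cell markers 0 were called. No marker was at 0 on every array. No list of rhabdomyosarcoma markers was used, so the tumour label was not checked. The 3′ to 5′ signal ratio of Gapdh, a measure of RNA and labelling quality, was 1.93 to 9.39 in tumours, and 1.68, 57.17 and 33.0 in muscles 1, 2 and 3. The same ratio of Actb was 3.35 to 6.78 in tumours and 1.87, 4.06 and 4.35 in those muscles, so by Actb muscles 2 and 3 lay within the range of the tumours. The spiked control dap was 116 to 950 in tumours and 2316 to 5844 in muscles, with no overlap. The part of these cell and quality differences in the results below was not tested. In bulk samples such as these, fewer cells of a type and less RNA per cell cannot be told apart.

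Differences are tumour minus muscle on log2(signal + 16), given ± SE, with Benjamini-Hochberg adjusted p-values from limma over all 12393 genes, and a gene was called when its adjusted p was under 0.05. Of the 38 initiation factor genes, 6 were called higher in tumours (15.8%), 3 were called lower (7.89%) and 29 were not called. Among all genes 17.8% were called, 8.66% as higher and 9.09% as lower. The median difference was 0.08 over the 38 genes and 0.10 over all genes, with 22 of the 38 positive and 16 negative. At an unadjusted p under 0.05, 13 of the 38 genes and 3608 of all genes passed. Signals did not overlap between tumours and muscles for 10 genes, of which 6 lay above (all genes 10.7%) and 4 below (all genes 11.0%). All 38 genes were above the median brightness of the array, where calls were more frequent. In a fit of the 6196 genes above that median, 30.9% were called, 15.2% higher and 15.7% lower, beside 6 (15.8%) and 5 (13.2%) of the 38. Against genes of such brightness, the shares called were near the background in both directions.

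**Figure D1:**
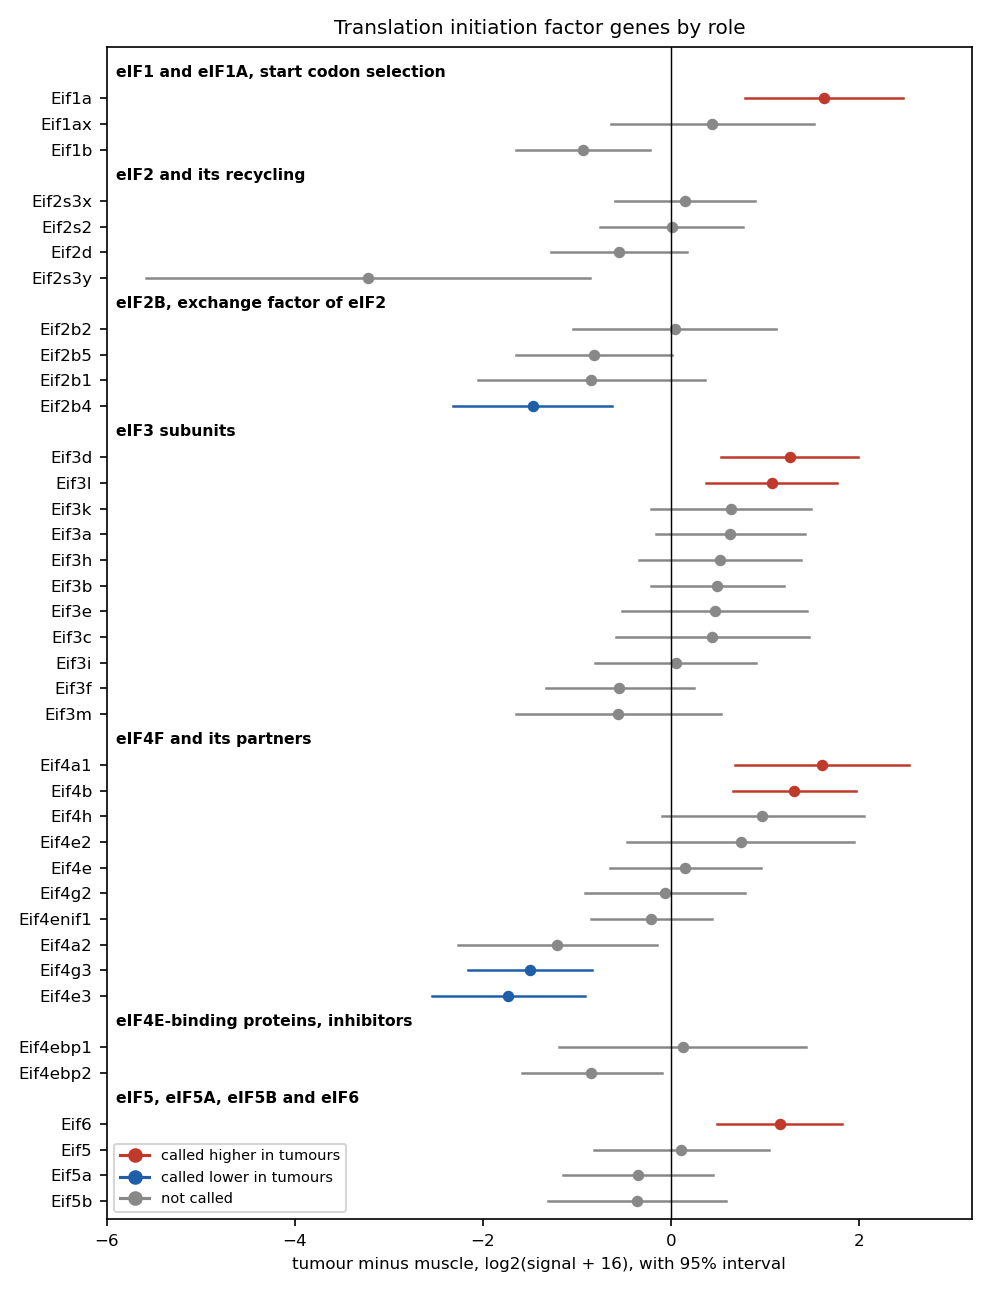
Difference of each of the 38 initiation factor genes, tumour minus muscle on log2(signal + 16), with points for the estimate and lines for the 95% interval from limma, grouped by role. The 6 red genes were called higher and the 3 blue genes lower; Eif2s3y has the lowest estimate (-3.22) and the widest interval (-5.58 to -0.86) and was not called.

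The eIF4F complex and its partners held calls in both directions, 2 higher and 2 lower among 10 genes, with a median difference of 0.04. Each count is 20.0%, beside 8.66% higher and 9.09% lower among all genes. In the fit of genes above median brightness these shares were 15.2% and 15.7%. With 10 genes, the counts show nothing particular to the complex. Eif4a1, the RNA helicase of eIF4F that is abundant in dividing cells, had signals of 4357, 1622, 2361, 6233, 3866 and 1689 in tumours 1 to 6, against 1029, 985 and 891 in muscles 1 to 3. Every tumour was above every muscle, and tumours 2 and 6 lay closest to them. The difference was 1.60 ± 0.43 (SE; 3.04-fold higher in tumours, adjusted p = 0.019). Its close paralog Eif4a2, which encodes a helicase that is more abundant in muscle and brain, had signals of 751, 4874, 2821, 2230, 2253 and 3517 in tumours and 3868, 7011 and 6254 in muscles. The groups overlapped, since tumour 2 was above muscle 1, and the difference of -1.21 ± 0.49 was not called (adjusted p = 0.11).

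Within an array, Eif4a2 minus Eif4a1 on the log2 scale was -2.51, 1.58, 0.26, -1.48, -0.77 and 1.05 in tumours 1 to 6, against 1.89, 2.81 and 2.79 in muscles 1 to 3. This difference is almost free of the scaling of the array, although its size within an array also holds the unequal response of the probe sets. All 6 tumours were below all 3 muscles. The tumour mean was 2.81 log2 units below the muscle mean (7.02-fold), with p = 0.0238 in an exact two-sided permutation test over 84 divisions of the arrays, whose smallest p is 0.0119, and 0.0833 after adjustment over the 7 pairs of genes compared. After that adjustment the shift did not pass the threshold of 0.05.

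**Figure D2:**
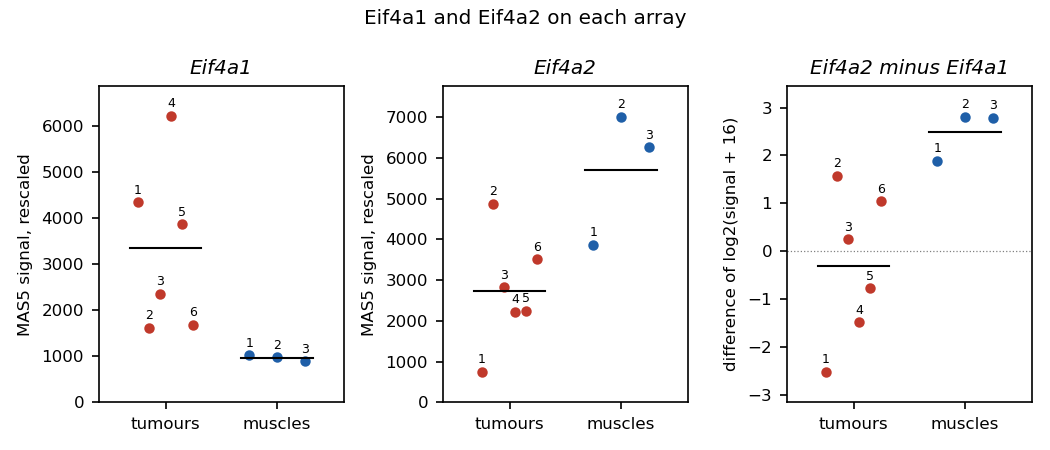
Rescaled MAS5 signals of Eif4a1 (left) and Eif4a2 (middle) and their difference on log2(signal + 16) within each array (right), with numbers naming the tumour or muscle and lines at the group means. The lowest Eif4a1 signal is 1622 in tumours and the highest 1029 in muscles, and the difference is below that of every muscle in 6 of 6 tumours.

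Eif4b, a cofactor that stimulates the eIF4A helicase, was also higher in tumours. Its signals were 3016, 4529, 4035, 3015, 3043 and 3823 in tumours 1 to 6, against 1174, 1401 and 1701 in muscles 1 to 3. The lowest tumour was well above the highest muscle, and the tumours spread little (SD 0.26 on log2). The difference was 1.31 ± 0.31 (2.49-fold, adjusted p = 0.0087). Eif4h, the other cofactor of the helicase, had signals of 41148, 10528, 11419, 7613, 10787 and 12940 in tumours and 5813, 6656 and 7783 in muscles. Tumour 1 stood far above the others and tumour 4 was below muscle 3, so the groups overlapped, and the difference of 0.97 ± 0.50 was not called (adjusted p = 0.22).

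The scaffold gene Eif4g3, a paralog of the main eIF4G gene Eif4g1, which was not among the genes analysed, was lower in tumours. It had signals of 993, 668, 839, 704, 781 and 1020 in tumours 1 to 6, against 2000, 2005 and 3265 in muscles 1 to 3. The tumours formed a narrow band (SD 0.25 on log2) that did not reach the muscles, and the difference was -1.50 ± 0.31 (2.83-fold lower, adjusted p = 0.0041). Eif4g2, which encodes a shorter relative of eIF4G that does not bind eIF4E, ranged from 3605 to 9887 in tumours and from 5770 to 8703 in muscles, with a difference of -0.06 ± 0.40 (95% interval -0.91 to 0.79, adjusted p = 0.95).

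Among the cap-binding genes, Eif4e3, an atypical member of the eIF4E family, was lower in tumours. Its signals were 425, 419, 491, 947, 1028 and 947 in tumours 1 to 6, against 1973, 2310 and 2421 in muscles 1 to 3. On this probe set tumours 1 to 3 were the lowest and no tumour reached the muscles. The difference was -1.73 ± 0.38 (3.33-fold lower, adjusted p = 0.0057), the most negative among the called members. The other probe set of Eif4e3 had 404 to 1772 in tumours and 546, 2072 and 2380 in muscles. There the groups overlapped and the difference of -0.93 ± 0.53 was not called (limma adjusted p = 0.29 over all probe sets). Eif4e, the main cap-binding protein gene, ranged from 969 to 2869 in tumours (median 1808) and from 1371 to 2084 in muscles, with a difference of 0.15 ± 0.37 and a 95% interval of -0.65 to 0.96 (adjusted p = 0.85). Eif4e2, whose product binds the cap but not eIF4G and represses translation, had signals of 7691 in tumour 1 and 861 to 1904 in the other tumours, against 877 to 1120 in muscles. Its difference of 0.74 ± 0.56 was not called (adjusted p = 0.44), and neither was that of Eif4enif1, which carries eIF4E between nucleus and cytoplasm (-0.21 ± 0.30, adjusted p = 0.73).

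Neither of the measured genes for eIF4E-binding proteins was called. Eif4ebp1 had signals of 6099, 805, 780, 2572, 903 and 594 in tumours 1 to 6, against 1413, 1087 and 1161 in muscles 1 to 3. Tumours 1 and 4 were above all muscles and the other 4 tumours below them, around a difference of 0.13 ± 0.61 (95% interval -1.19 to 1.44, adjusted p = 0.93). This split holds only for the probe set used. On another set of Eif4ebp1 tumour 4 (812) was below muscle 1 (1072), and every tumour was above muscle 2 (377). On a further set tumour 1 (212) was below all muscles (225 to 236). Neither of these sets was called (0.26 and -0.01). Eif4ebp2 had signals of 941, 536, 956, 1018, 682 and 1074 in tumours and 993, 2065 and 1747 in muscles. Tumours 4 and 6 were above muscle 1, and the difference of -0.85 ± 0.35 was not called (adjusted p = 0.12).

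Set against the cap-binding gene within an array, Eif4ebp1 minus Eif4e differed by -0.03 between tumours and muscles (exact permutation p = 0.988, adjusted p = 0.988 over the 7 pairs), and Eif4ebp2 minus Eif4e by -1.0 (p = 0.155, adjusted p = 0.271). For Eif4ebp2 minus Eif4ebp1 the difference was -0.97 (exact permutation p = 0.25, adjusted p = 0.35), and for Eif4e2 minus Eif4e it was 0.59 (p = 0.69, adjusted p = 0.806). None of these 4 differences passed the threshold, which does not show that the genes moved alike.

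Promoters of 30 of the 38 genes were in the RefSeq promoter table (build GRCm38.p6), and 4 are printed here as examples from eIF4F. They are those of the helicase paralogs, of their cofactor Eif4b, and of Eif4e, the cap-binding gene, before the annotated start that holds the searched motif. The choice does not follow the calls: Eif4a2 and Eif4e were not called, and the promoter of the called Eif4g3 is not printed. Each run is the 250 bases before an annotated start, 5′ to 3′ on the strand of the gene, in lower case, with the motif CACGTG in capitals.

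Eif4a1 (chr11:69672424-69672673, - strand): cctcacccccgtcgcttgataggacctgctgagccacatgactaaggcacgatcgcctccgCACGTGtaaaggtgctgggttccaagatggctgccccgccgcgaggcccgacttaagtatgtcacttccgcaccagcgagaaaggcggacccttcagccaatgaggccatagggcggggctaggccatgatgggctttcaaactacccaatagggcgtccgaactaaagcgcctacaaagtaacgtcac
Eif4a2 (chr16:23107218-23107467, + strand): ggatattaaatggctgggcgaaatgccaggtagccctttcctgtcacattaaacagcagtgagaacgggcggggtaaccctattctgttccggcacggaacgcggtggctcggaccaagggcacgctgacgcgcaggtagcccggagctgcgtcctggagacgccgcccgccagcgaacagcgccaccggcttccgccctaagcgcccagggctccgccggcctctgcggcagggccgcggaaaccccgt
Eif4b (chr15:102073523-102073772, + strand): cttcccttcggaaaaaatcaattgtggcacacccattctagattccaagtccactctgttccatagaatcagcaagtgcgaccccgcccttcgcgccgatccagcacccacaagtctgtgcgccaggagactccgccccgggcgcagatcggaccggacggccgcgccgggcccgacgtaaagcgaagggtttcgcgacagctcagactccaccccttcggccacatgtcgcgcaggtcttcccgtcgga
Eif4e (chr3:138527018-138527267, + strand): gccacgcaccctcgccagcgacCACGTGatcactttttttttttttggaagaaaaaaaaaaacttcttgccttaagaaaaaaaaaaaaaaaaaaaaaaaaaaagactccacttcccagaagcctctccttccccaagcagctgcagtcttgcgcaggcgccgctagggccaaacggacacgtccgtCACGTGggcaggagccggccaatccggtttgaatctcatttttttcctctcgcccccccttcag

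CACGTG is the E-box bound by MYC and related factors, and it reads the same on both strands. In the window from 250 bases before to 50 after a start it was found for 8 of the 30 initiation factor genes (26.7%), against 10.8% of 9887 tested genes with a promoter and 8.09% of all 27025 genes in the table. The 8 genes were Eif1b, Eif3a, Eif3f, Eif3k, Eif4a1, Eif4e, Eif4h and Eif5a. Eif4a1 held it once, Eif4e held it at 2 places before the start printed above and not at its other annotated start, Eif5a held it at some of its annotated starts and not at others, and Eif4a2 and Eif4b did not hold these letters in the window. Of the called genes with a promoter, it was found for 1 of 4 that were higher and 0 of 2 that were lower. A match describes the letters only, and nothing about binding was measured.

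The eIF3 subunits, which form the largest initiation factor and bridge the small ribosomal subunit and eIF4G, had 2 of 11 genes called higher and 0 called lower. The 18.2% called higher stand beside 8.66% of all genes, and 15.2% in the fit of genes above median brightness. The median difference of the 11 eIF3 genes was 0.49, against 0.1 over all genes. Of the 11, 9 were positive, beside 6885 of all 12393 genes, and among them Eif3i was near 0 (0.05). Eif3d, a subunit that can itself bind the cap of some mRNAs in human cells, had signals of 3738, 1895, 2341, 3218, 3083 and 1815 in tumours 1 to 6, against 1091, 829 and 1363 in muscles 1 to 3. All tumours were above all muscles, with a difference of 1.26 ± 0.34 (2.39-fold, adjusted p = 0.02). Eif3l, a peripheral subunit that pairs with Eif3k, had signals of 2069, 3018, 3511, 2584, 3006 and 1730 in tumours, against 1189, 1019 and 1510 in muscles. The groups did not overlap, tumour 6 being nearest to muscle 3, and the difference was 1.07 ± 0.33 (2.09-fold, adjusted p = 0.036).

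The other 9 eIF3 genes were not called, and their differences lay between -0.56 (Eif3m) and 0.64 (Eif3k). Eif3e ranged from 5193 to 19663 in tumours (median 10788) and from 6742 to 11138 in muscles, a difference of 0.47 ± 0.46 (adjusted p = 0.58). Eif3m ranged from 266 in tumour 1 to 1820 in tumour 3, against 1220 to 1839 in muscles, a difference of -0.56 ± 0.51 (adjusted p = 0.54). Eif3a, the core scaffold subunit, differed by 0.63 ± 0.37 (adjusted p = 0.29) and Eif3c by 0.44 ± 0.48 (adjusted p = 0.63).

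For start codon selection, Eif1a, 1 of the mouse genes for eIF1A, was higher in tumours. It had signals of 876, 2053, 2239, 813, 883 and 1326 in tumours 1 to 6, against 386, 343 and 461 in muscles 1 to 3. Every tumour was above every muscle, and the difference was 1.63 ± 0.39 (3.09-fold, adjusted p = 0.01), the highest of the 38. The X-linked gene for eIF1A, Eif1ax, had signals of 1676, 9662, 7112, 2791, 4719 and 5537 in tumours and 2869, 4854 and 2625 in muscles. These overlapped, with a difference of 0.44 ± 0.50 (adjusted p = 0.65).

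Eif1ax minus Eif1a within an array averaged 1.84 in the 6 tumours, with an SD of 0.53, against 3.02 in the 3 muscles, with an SD of 0.67, and all 6 tumours were below all 3 muscles. The difference of -1.19 had the smallest p the exact permutation test can give, 0.0119, and 0.0833 after adjustment over the 7 pairs. Eif1b, a close relative of the start codon factor eIF1, had signals of 515, 962, 938, 615, 504 and 493 in tumours, against 1379, 1134 and 1244 in muscles. The tumours were all below the muscles, but the difference of -0.94 ± 0.33 was not called (adjusted p = 0.069).

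In eIF2 and its exchange factor eIF2B, 1 of 8 genes was called, as lower, beside 9.09% of all genes called lower. Eif2b4, the delta subunit of eIF2B, had signals of 564, 1114, 1421, 620, 1829 and 1271 in tumours 1 to 6, against 2525, 3369 and 2940 in muscles 1 to 3. No tumour reached the muscles, and tumours 1 and 4 were the lowest, with a difference of -1.47 ± 0.39 (2.77-fold lower, adjusted p = 0.019). The other eIF2B genes measured were not called: Eif2b2 differed by 0.04 ± 0.50 (adjusted p = 0.98), Eif2b5, the catalytic subunit, by -0.82 ± 0.39 (adjusted p = 0.18) and Eif2b1 by -0.85 ± 0.56 (adjusted p = 0.37). The median difference of the 4 eIF2B genes was -0.83.

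Of the eIF2 genes, Eif2s2, the beta subunit, ranged from 2810 to 5053 in tumours and from 2137 to 4431 in muscles (0.01 ± 0.36, adjusted p = 1.0). Eif2s3x, the X-linked gene for the gamma subunit, ranged from 2025 to 3504 in tumours and from 1516 to 3113 in muscles (0.15 ± 0.35, adjusted p = 0.85). Eif2d, whose product can deliver tRNA to the ribosome without eIF2, differed by -0.55 ± 0.34 (adjusted p = 0.32). None of these 3 was called, and the groups overlapped for each.

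Eif2s3y, the Y-linked copy of the gamma subunit gene that mouse spermatogonia need, had signals of 10, 207, 80, 1186, 6 and 854 in tumours 1 to 6, against 899, 1735 and 1798 in muscles 1 to 3. Tumours 1 and 5 were at the lowest signals, tumours 2 and 3 were intermediate, tumour 6 was just below muscle 1, and tumour 4 was above it. Its difference of -3.22 ± 1.10 was the most negative of the 38 and was not called (adjusted p = 0.058), and its spread among tumours (SD 2.46 on log2) was the widest. Eif2s3y minus Eif2s3x differed by -3.37 between tumours and muscles, with 5 of 6 tumours below all muscles (exact permutation p = 0.0595, adjusted p = 0.139 over the 7 pairs).

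Xist, the RNA made from the inactive X chromosome, had signals of 7653, 56, 321, 276, 6428 and 364 in tumours 1 to 6, against 134, 223 and 164 in muscles 1 to 3 (1.94 ± 1.18, adjusted p = 0.32). It was high in tumours 1 and 5, the same tumours in which Eif2s3y was lowest. The Y-linked genes Kdm5d (-0.83 ± 0.58, adjusted p = 0.4) and Uty (-1.15 ± 0.61, adjusted p = 0.23) were not called. Kdm5d had signals of 117, 58, 101, 266, 25 and 229 in tumours 1 to 6, against 205, 154 and 251 in muscles. Uty had 60, 31, 63, 278, 39 and 136 in tumours, against 167, 383 and 108 in muscles. For both genes tumour 1 was above tumour 2, so they did not set tumours 1 and 5 apart as Xist did. The labels do not give the sex of the animals, and the part of sex in the Eif2s3y difference was not tested.

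**Figure D3:**
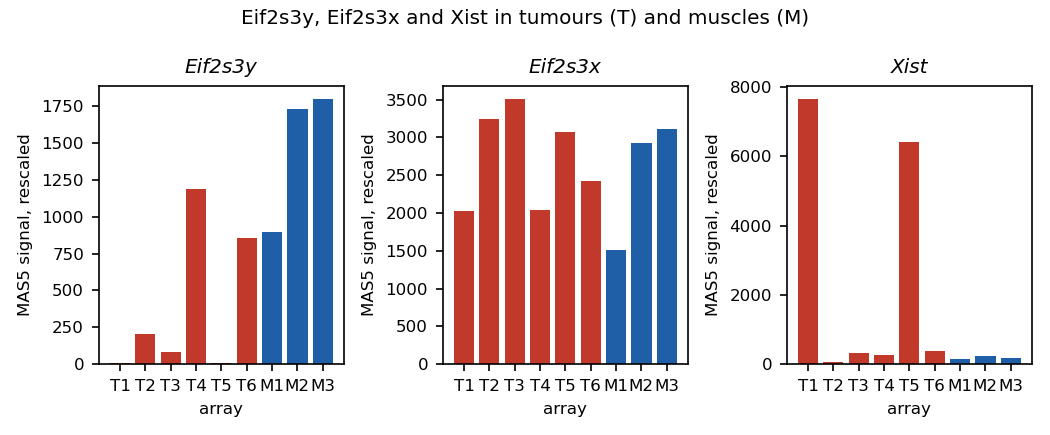
Rescaled MAS5 signals of Eif2s3y (left), Eif2s3x (middle) and Xist (right) on each array, tumours T1 to T6 in red and muscles M1 to M3 in blue. Eif2s3y is 10 and 6 in tumours 1 and 5, in which Xist is 7653 and 6428, while Eif2s3x lies between 1516 and 3504 on all arrays.

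Of the late factors, Eif6, which holds the large ribosomal subunit apart and takes part in its assembly, was higher in tumours. Its signals were 2095, 2267, 2543, 1996, 2949 and 1610 in tumours 1 to 6, against 1220, 796 and 971 in muscles 1 to 3. The lowest tumour, tumour 6, was above the highest muscle, and the difference was 1.16 ± 0.31 (2.23-fold, adjusted p = 0.019). Eif5a, a factor modified by hypusine that also helps elongation, ranged from 10360 to 12967 in tumours and from 12113 to 16008 in muscles, a difference of -0.35 ± 0.37 (adjusted p = 0.62). Eif5, which makes eIF2 hydrolyse GTP at the start codon, differed by 0.11 ± 0.43 (adjusted p = 0.91), and Eif5b by -0.36 ± 0.44 (adjusted p = 0.67).

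**Figure D4:**
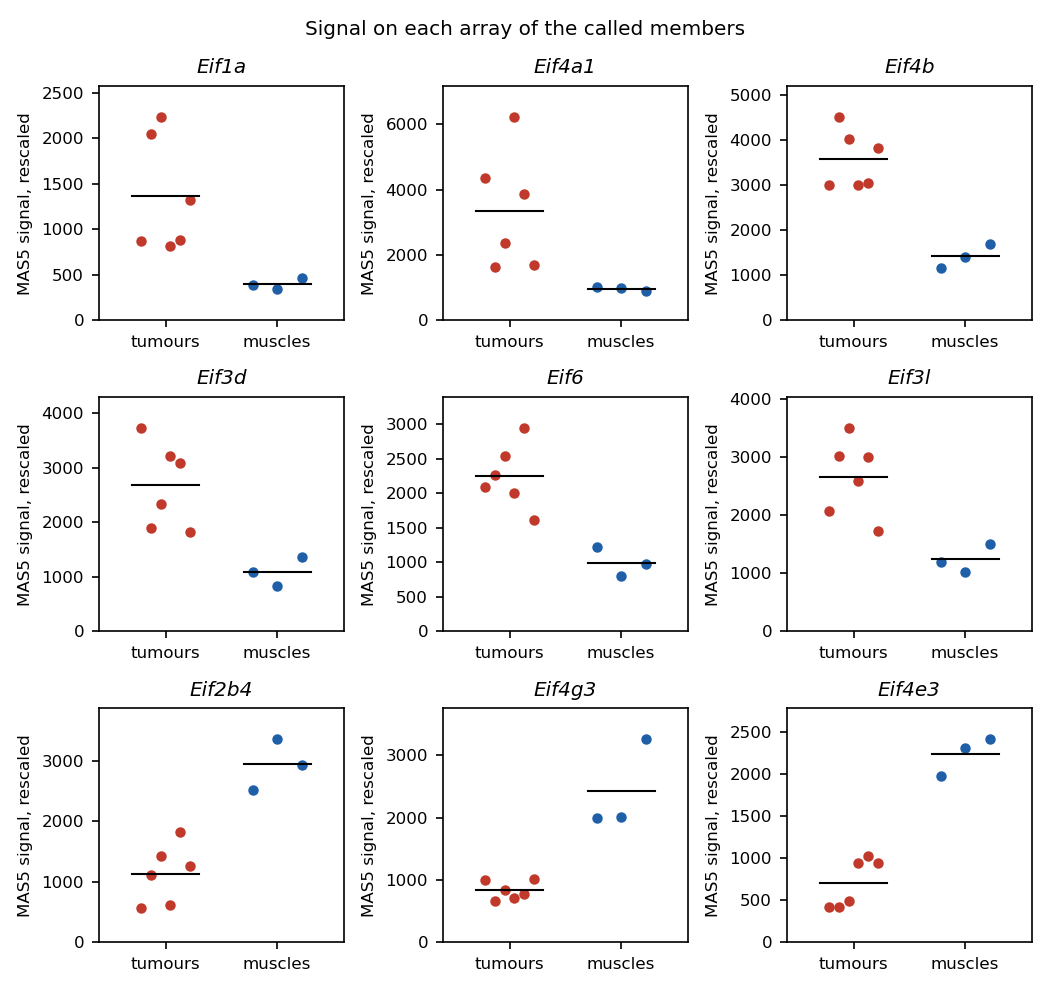
Rescaled MAS5 signals of the 9 called genes on each array, with tumours in red (in order 1 to 6), muscles in blue (in order 1 to 3) and lines at the group means; each axis starts at 0. In every panel the tumours and muscles do not overlap, with Eif2b4, Eif4g3 and Eif4e3 in the bottom row lower in tumours.

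How firmly a call stood differed between the genes. Over 21 alternative settings, Eif1a and Eif4g3 kept their calls in 20, Eif4b and Eif4e3 in 19, Eif2b4 in 18, Eif3d in 17, Eif4a1 and Eif6 in 16 and Eif3l in 9. Without rescaling, the 3 genes called lower kept their sign but not their call (Eif4e3 -0.88, Eif4g3 -0.64, Eif2b4 -0.62). That setting moved the median of all genes to 0.79 and the share of higher genes among all calls to 86.5%, against 48.8% with rescaling. Leaving out muscles 2 and 3, for their Gapdh ratios, left 1 muscle, assumed to vary like the tumours. That fit called only 73 of all genes higher and 100 lower, so it could hardly call any member and is not counted above. None of the 9 was called in it, and their differences were of the same sign (Eif1a 1.66, Eif4a1 1.51, Eif4b 1.58, Eif3d 1.23, Eif6 0.84, Eif3l 1.11, Eif4e3 -1.56, Eif4g3 -1.26, Eif2b4 -1.26).

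Leaving out 1 array at a time ended some calls, with adjusted p from limma over all genes. Eif4a1 was not called without muscle 1 (0.06), muscle 2 (0.074) or muscle 3 (0.095), Eif1a without muscle 2 (0.06), and Eif4b without muscle 1 (0.057). Eif3d was not called without muscle 1 (0.068) or muscle 2 (0.13), Eif6 without muscle 2 (0.12) or muscle 3 (0.091), and Eif2b4 without muscle 2 (0.095) or muscle 3 (0.083). The call of Eif3l ended when tumour 3 (0.069), 4 (0.053) or 5 (0.072) was left out, and likewise for muscle 1 (0.11), 2 (0.18) or 3 (0.08). The calls of Eif4e3 and Eif4g3 stood in each fit that left out 1 array. Centring the arrays on the median ended the calls of Eif4b (0.051), Eif6 (0.063) and Eif3l (0.12). Using the mean of its probe sets took the difference of Eif3l to 0.52 (0.31), and using the median over probe sets took that of Eif4e3 to -1.33 (0.15).

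Several probe sets were available for 25 of the 38 genes, and for 9 of these all sets had the same sign. Fitted on their own among 20380 probe sets, 11 of the 94 were called higher and 6 lower, against 7.8% and 7.89% of all probe sets. For Eif4a1, 3 of 3 probe sets were called higher, with differences of 1.60, 1.95 and 2.68, and for Eif1a both sets were (1.63 and 1.66). In no gene were probe sets called in opposite directions, but in 4 genes a probe set that was not used was called while the used set was not. A second set of Eif1ax had signals of 52, 251, 342, 214, 135 and 231 in tumours 1 to 6, against 1272, 1336 and 1428 in muscles 1 to 3 (-2.80 ± 0.47, adjusted p = 0.0011), so the sets of Eif1ax had opposite signs. The others were a set of Eif2s2 (1.77 ± 0.42, adjusted p = 0.01), of Eif4g2 (-1.77 ± 0.53, adjusted p = 0.034) and of Eif5b (-1.69 ± 0.51, adjusted p = 0.038). Statements on these 4 genes therefore depend on the probe set. So do those on other genes whose sets differed in sign. Examples are Eif4e (0.15 on the used set, -0.59 and -1.05 on others), Eif5a (-0.35, and 0.99 on the other) and Eif3l (1.07, and -0.02 and 0.51 on others). Affymetrix names 10 of the 38 sets used with suffixes for probes that can also match other transcripts, among them the used sets of Eif1a, Eif3e and Eif4h.

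**Figure D5:**
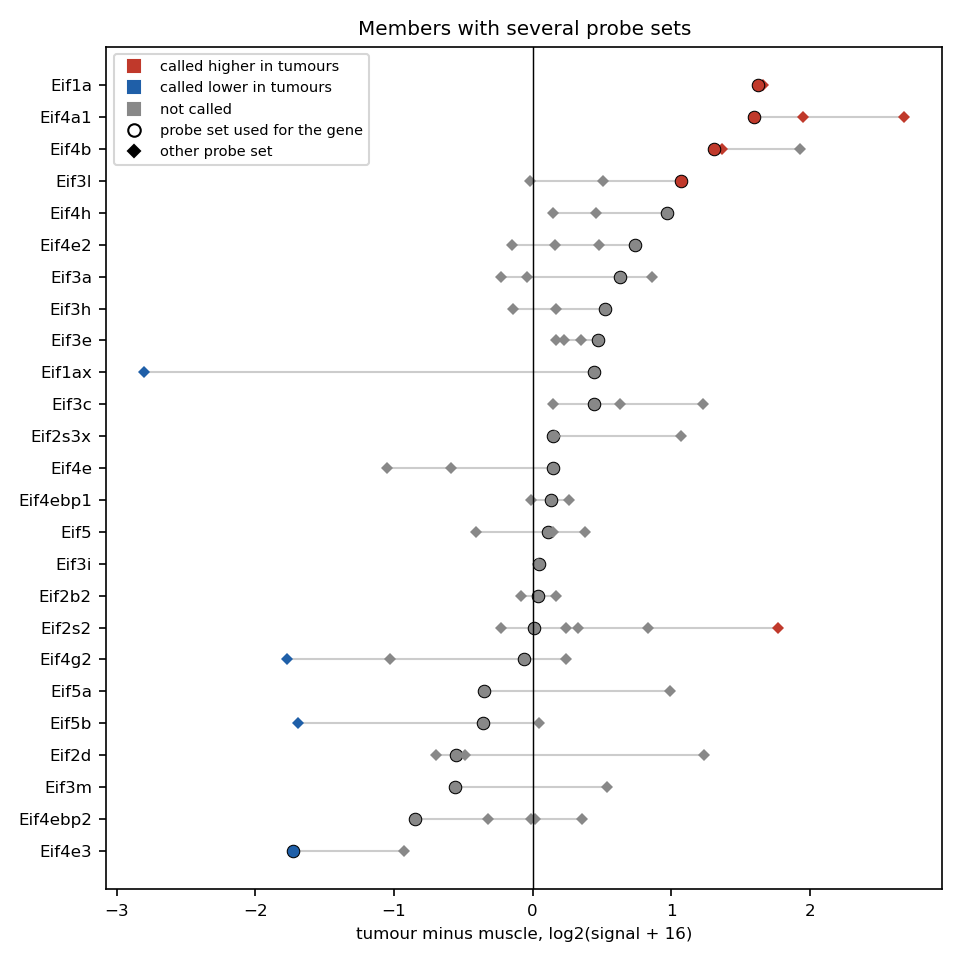
Difference, tumour minus muscle on log2(signal + 16), of every probe set of the 25 genes with several sets; circles mark the set used for the gene, diamonds the others, and colour the call among all 20380 probe sets. The 3 sets of Eif4a1 lie together on the right, while the sets of Eif1ax lie on opposite sides of 0.

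The counts in the lists of related genes below stand beside 8.66% of all genes called higher and 9.09% called lower, and with so few genes they show nothing particular to a list. Among 12 genes of the eIF2 kinases, phosphatase subunits and stress response targets, 2 were called higher and 0 lower. These were Asns, asparagine synthetase and a target of ATF4 (mean ± SD of 1862 ± 876 in the 6 tumours, against 310 ± 16 in the 3 muscles, a difference of 2.38 ± 0.42, 5.19-fold, adjusted p = 0.0015), and Ddit3, the stress factor CHOP (1.65 ± 0.47, 3.13-fold, adjusted p = 0.027). Atf4 itself differed by 0.43 ± 0.38 (adjusted p = 0.52), and Chac1, another target of this response, by -1.51 ± 0.50 (adjusted p = 0.051), a gene that was called lower in 5 of 21 alternative settings. Among 11 measured genes of mTORC1 and MNK signalling, 0 were higher and 2 lower. Mknk2, a kinase that phosphorylates eIF4E, had signals of 3276, 769, 1403, 1670, 1045 and 881 in tumours, against 6243, 8716 and 7747 in muscles (-2.48 ± 0.43, 5.59-fold lower, adjusted p = 0.0012). Deptor, an inhibitor bound to mTOR, was the other (-1.77 ± 0.58, adjusted p = 0.049).

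Among 12 measured cofactors and poly(A)-binding proteins, 2 were higher and 2 lower. Pabpc1, the main cytoplasmic poly(A)-binding protein, which contacts eIF4G, had a mean signal of 14149 ± 3405 in tumours and 4685 ± 875 in muscles (SD; difference 1.58 ± 0.38, adjusted p = 0.011), while its relative Pabpc4 had 1298 ± 538 in tumours and 4440 ± 1074 in muscles (SD; difference -1.87 ± 0.42, adjusted p = 0.0073). Dhx9, an RNA helicase, was higher (1.60 ± 0.44, adjusted p = 0.022), and Paip2b, an inhibitor of poly(A)-binding protein, was lower (-1.26 ± 0.33, adjusted p = 0.018). Of 11 measured elongation and termination factors, 1 was higher and 1 lower. Eef1a2, the elongation factor isoform of adult muscle and neurons, had signals of 3813, 85, 495, 302, 391 and 361 in tumours, against 6657, 4335 and 6050 in muscles (-3.60 ± 0.78, 12.2-fold lower, adjusted p = 0.0054). Tumour 1, which also had the highest muscle fibre signal of the tumours, was far above the other tumours, though below every muscle. The part of muscle fibre RNA in this value was not tested.

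The widely expressed isoform Eef1a1 had a mean signal of 22130 ± 3324 in tumours and 9523 ± 1093 in muscles (SD), a difference of 1.21 ± 0.40 that was not called (adjusted p = 0.053). Gspt2, a release factor subunit, was called higher (1.77 ± 0.56, adjusted p = 0.043), but its muscle signals of 10 to 12 were below the offset. Of 5 measured mitochondrial translation factors, 2 were lower, the elongation factor Gfm1 (-1.67 ± 0.31, adjusted p = 0.0021) and the initiation factor Mtif2 (-1.13 ± 0.31, adjusted p = 0.02).

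Several of these calls on related genes depended on the setting. Over the alternatives, Asns and Mknk2 were called in 21 of 21, Gfm1 and Eef1a2 in 20, Pabpc4 in 19, Paip2b in 18, Pabpc1 in 17, Dhx9 in 16, Mtif2 in 15 and Deptor in 7 of 21, with Ddit3 in 13 and Gspt2 in 11 of 20. Without rescaling, Deptor (-0.92), Pabpc4 (-1.01), Paip2b (-0.40), Gfm1 (-0.82) and Mtif2 (-0.30) were not called. With 1 array left out, Deptor was not called without tumour 2, 3 or 5 or any muscle, Gspt2 without tumour 2, 3 or 6 or any muscle, and Ddit3 without tumour 4 or 5 or muscle 1 or 2. Leaving out any muscle ended the call of Mtif2, leaving out muscle 2 or 3 those of Pabpc1 and Paip2b, muscle 2 that of Pabpc4, and muscle 1 or 3 that of Dhx9. The highest adjusted p over the alternatives was 0.26 for Deptor, 0.19 for Ddit3, 0.15 for Gspt2, 0.1 for Pabpc1, 0.19 for Pabpc4, 0.58 for Paip2b, 0.21 for Dhx9, 0.69 for Mtif2, 0.26 for Gfm1 and 0.077 for Eef1a2. Among muscle fibre markers, Acta1 was called in 8 and Ttn in 13 of 21, Mb and Myh4 in 20, and Ckm, Tnnt3, Pvalb and Pygm in 21. The leukocyte marker Ptprc was called in 8 of 21, Csf1r in 20, and Cd68, Cd14 and Cd52 in 21.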

How the data were processed

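Total RNA of 6 tumours and 3 muscles was hybridised to 1 Affymetrix array each. The deposited values are linear signal intensities made by the authors with MAS5, per the submitters' processing notes, with no version or scaling target given in the sources used here. The log2 values were computed here from these deposited intensities. MAS5 subtracts background and mismatch signal, so low signals can be background, and the number of arrays limits the precision.

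Each array was multiplied to the median of the arrays' means trimmed by 2% at each end, which multiplied muscle 1 by 1.6995, muscle 3 by 3.5493 and the others by 1.0. Of 22690 probe sets, 64 controls, 691 with several gene symbols and 1555 with none were left out, and no filter on low values was applied. Each of 12393 genes was read by its brightest probe set, by mean log2 over 9 arrays, of which 6 are tumours. Symbols were checked against RefSeq (12369 genes matched, 0 updated). Array annotation names no build, so coordinates are given only for RefSeq promoters.

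limma 3.58.1 in R 4.3.3 (lmFit, eBayes with an intensity trend) was run on log2(signal + 16), with Benjamini-Hochberg adjustment and calls under 0.05. Folds are on that scale. The script was tested on simulated data with 200 of 12393 genes changed, against 2200 called here. It recovered 1% of the 2-fold and 37% of the 4-fold changes, with 1 false call. A gene that was not called can therefore still differ. Differences of 2 genes within an array were compared by exact two-sided permutation in Python 3.11.15 with scipy 1.17.1, adjusted over the 7 of the listed pairs that were measured. Genes were named by a rule: called members, all eIF4F and eIF4E-binding protein genes, members without overlap between groups, the extreme and brightest members of other roles, and up to 3 called genes per direction in related lists. Eif3a, Eif3c, Eif3k, Eif5, Eif2b1, Eif2b5, Eif2d, Atf4, Chac1, Ckm, Eef1a1 and the sex-linked genes were added after their values were seen. Members and lists were chosen with earlier results of these data known. Alternatives were other scalings, offsets of 1 and 64, genes of above-median brightness, other uses of the probe sets, no trend, a replicate block and leaving out arrays.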

Additional observations from a re-analysis of the deposited data

Results flagged for a closer look

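In 5 of the 38 initiation factor genes, tumour 1 lay apart from the other 5 tumours by Dixon's test on log2(signal + 16). Chance alone passes this test in about 1 in 20 groups. It was run on these 38 genes only, so no share of all genes stands beside the 5, and they show nothing particular to initiation factors. Tumour 1 was the lowest tumour for Eif2b1 (144, the next tumour 725), for Eif3c (1067, the next 2860) and for Eif4g2 (3605, the next 6809). It was the highest for Eif4e2 (7691, the next tumour 1904) and for Eif4h (41148, the next 12940). None of these 5 genes was called between tumours and muscles. These flags hold for the probe sets used. On other sets of Eif3c tumour 1 was the highest tumour (3696 and 2478), and on other sets of Eif4h it lay among the tumours (5488 and 2789). A further set of Eif4e2 again had it highest (1240), and a further set of Eif4g2 again had it lowest (761). Tumour 1 was the lowest of the 6 tumours for 12 of the 38 genes (31.6%, against 20.1% of all genes) and the highest for 7 (18.4%, against 37.6%). Its hybridisation control cre was also the brightest, at 32500 after rescaling, with 26648 in tumour 4; tumours 2, 3, 5 and 6 lay between 5345 and 13348, and the muscles between 5483 and 11705. The spiked control dap was 253 in tumour 1, within the 116 to 950 of the tumours, against 2316 to 5844 in muscles. Tumour 1 also stood apart in muscle fibre markers, with a summed signal of 88120, against 16623 in the next tumour and 150838 to 202393 in muscles; Ckm, for example, was 10856 in tumour 1 and 196 to 478 in the other tumours. The part of hybridisation or of muscle fibre RNA in these values was not tested.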

How the results depend on the processing

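The numbers of members called were 6 higher and 3 lower. Of these higher calls 3 remained with median centring, 2 in tumours 1 to 3 against muscles 1 to 3 without a block, and 0 without muscles 2 and 3. Lower calls numbered 1 without rescaling (Eif2s3y), 5 with above-median genes only (adding Eif1b and Eif2s3y) and 0 without muscles 2 and 3, a fit with 1 muscle that called few of all genes. Leaving out 1 array gave 1 to 6 higher and 2 to 4 lower calls. The labels do not say whether replicate numbers pair the samples, and 3 correlations cannot decide it. Deviations of same-numbered tumours and muscles correlated at 0.228, 0.177 and -0.018. Muscles 1 and 2, but not muscle 3, correlated best with their own number. The replicate block gave 2 higher and 4 lower calls, as did the same arrays without it.

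Signs turned for 10 uncalled genes without rescaling, to 0.00 for Eif2b1, Eif2b5 and Eif4ebp2, 0.28 for Eif2d, 0.31 for Eif3f, 0.29 for Eif3m, 0.63 for Eif4enif1, 0.80 for Eif4g2, 0.51 for Eif5a and 0.46 for Eif5b. With the mean and with the median of probe sets they turned for Eif1ax (-1.18 in both), Eif4e (-0.50 and -0.59) and Eif5a (0.32 in both). Median centring turned Eif2b2 (-0.07), Eif2s2 (-0.10) and Eif3i (-0.06), quantile normalization Eif4g2 (0.01), and the replicate block and the same arrays without it Eif2s2 (-0.09). Without tumours 1 and 4, which had the brightest cre signals, Eif2b2 (-0.25), Eif2s2 (-0.07), Eif3i (-0.27), Eif4ebp1 (-0.66), Eif4g2 (0.15) and Eif4e2 minus Eif4e (-0.24) turned. Without muscles 2 and 3 Eif2s2 (-0.38), Eif3c (-0.17), Eif3i (-0.38), Eif3k (-0.04), Eif4e (-0.20), Eif4ebp1 (-0.09) and Eif4g2 (0.27) did. Leaving out 1 array gave ranges across 0 for Eif2b2 (-0.15 to 0.38), Eif2s2 (-0.33 to 0.20), Eif2s3x (-0.18 to 0.33), Eif3i (-0.15 to 0.26), Eif4ebp1 (-0.31 to 0.35), Eif4g2 (-0.23 to 0.13), Eif5 (-0.10 to 0.31), Eif4ebp1 minus Eif4e (-0.64 to 0.25) and Eif4e2 minus Eif4e (-0.04 to 0.83). The cause was not tested.

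Calls were gained in some settings: Eif1b with above-median genes (-0.94, adjusted p = 0.048) and without tumour 2 (-1.05, adjusted p = 0.032), and, without rescaling, Eif3k (1.47), Eif4e2 (1.58) and Eif4h (1.84). Eif2s3y passed in 8 settings, with adjusted p from 0.00077 (replicate block) to 0.048. No setting turned the sign of a called member.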
